A study of Drosophila melanogaster with 6 samples.

Results

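The genes described here are aub, AGO3, piwi, vas, bam, nos, osk and tj, which are known for work in the fly gonad and were followed in Drosophila S2 cells. They were found by symbol in the count tables, where they make up 8 of 14770 genes, and the same 8 rows were read in all 6 libraries. The rule that finds them uses symbols and no values. The gene nos is named nanos in current annotation.

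PIWI proteins are Argonaute proteins that carry piRNAs, small RNAs that guide them to transposon transcripts. In the fly germline Aub and Ago3 cut transposon RNA in the cytoplasm and make new piRNAs from the pieces in a loop called ping-pong, while Piwi enters the nucleus and silences transposons at the chromatin. Vas, Nos, Osk and Bam are germline proteins of nuage, germ plasm and stem cell progeny, and Tj is a transcription factor of the somatic cells of the gonad, in which Piwi also acts. S2 cells come from late embryos and resemble blood cells, so the genes are followed here outside the tissue they are known from.

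Polyadenylated RNA was sequenced from 4 libraries of S2-DRSC cells, labelled wild type (S2), and from 2 libraries of the same line carrying HA::AbdA by stable transfection (S2-AbdA). AbdA is the Hox transcription factor of the abdomen. Cells of both groups, the S2 controls included, had been given 10 µM copper sulphate for 24 h, and the study asked how expression differs with and without AbdA. The sources used here name neither the promoter of the transgene nor whether the transfected line is 1 clone. No line transfected without AbdA is among the samples, so effects of AbdA and of the transfection cannot be told apart. Nothing in the labels says that replicates are separate cultures, so p-values measure the spread between these libraries, which may be technical.

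Libraries held 34233132 to 69858688 counts, and 3 counts, taken as the floor of detection, came to 0.0429 to 0.0876 CPM, the usual unit of a gene's counts scaled by its library's total. The transgene showed in the abd-A counts, which were 819828 and 505607 in S2-AbdA. They were 996 and 2308 in S2 replicates 1 and 2, where the transgene should be missing, and 0 and 3 in S2 replicates 3 and 4. The 4 S2 libraries were not alike in other respects: between replicates 3 and 4 and replicates 1 and 2, 37.0% of 9375 tested genes differed. The authors' table of AbdA-dependent genes is named in the descriptions of S2 replicates 1 and 2 and of both S2-AbdA libraries, but not for S2 replicates 3 and 4. The S2 libraries were therefore kept as separate pairs and S2-AbdA was set against each pair. Blood cell markers were present, with Col4a1 (Cg25C in the files) at a mean of 522 and srp at 37.0 RPKM (CPM per kb of exonic length). The receptor genes eater and Sr-CI, at 22.9 and 16.2 RPKM in S2 replicates 1 and 2, stood at 0.275 and 0.114 RPKM in S2 replicates 3 and 4. The summed RPKM of the 14 blood markers ran from 1527 to 1757 in S2 replicates 1 and 2, from 399 to 1035 in S2 replicates 3 and 4, and from 1106 to 1240 in S2-AbdA.

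The PIWI genes and osk were expressed at modest levels in these cells, bam was low, and vas, nos and tj were at or near the floor. Averaged over the 6 libraries, aub reached 6.58 RPKM and was above 59.1% of genes, piwi 2.60 RPKM (53.1%), AGO3 2.56 RPKM (53.0%) and osk 1.92 RPKM (51.6%). The level of bam was 0.320 RPKM, that of vas 0.0926 RPKM, that of nos 0.0885 RPKM and that of tj 0.00679 RPKM. Of the 8 genes, 4 had a mean of at least 1 RPKM and 0 a mean of at least 10 RPKM. Over all 6 libraries together aub had 4835 counts, while vas, which marks germ cells, had 57, nos had 56 and tj had 7.

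**Figure D1:**
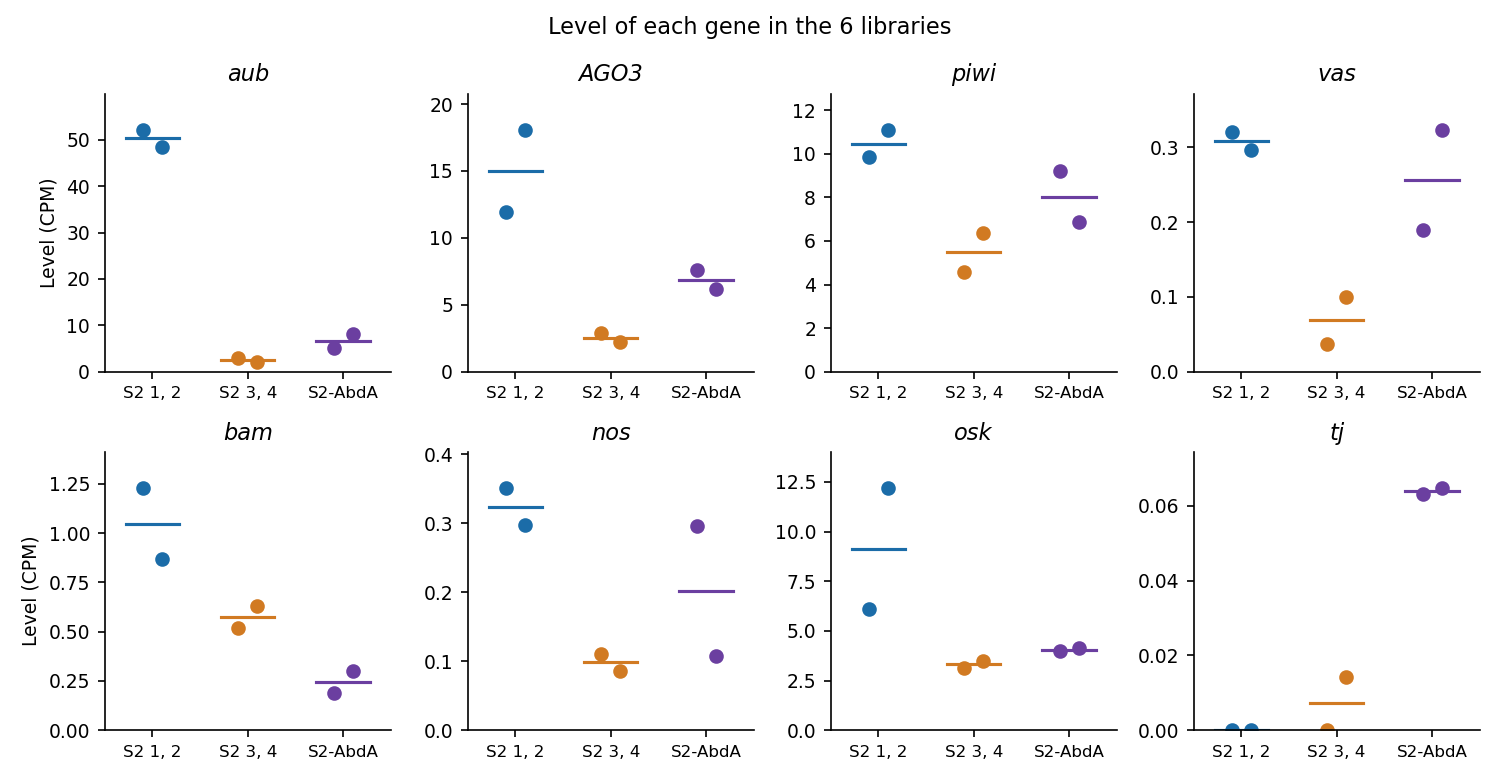
Level of each of the 8 genes in CPM (vertical axes, each from 0) in the 6 libraries, with S2 replicates 1 and 2, S2 replicates 3 and 4 and S2-AbdA apart; points are libraries and lines are means of 2. For aub the points of S2 replicates 1 and 2 lie at 52.2 and 48.4 CPM, far above the other 4 libraries, which lie between 2.06 and 8.13 CPM.

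Transcripts of aub and AGO3 were most abundant in S2 replicates 1 and 2 and least abundant in S2 replicates 3 and 4, with S2-AbdA in between. The same order of the 3 pairs of libraries held for the mean CPM of piwi, osk, vas and nos, and not for bam, which was lowest in S2-AbdA, nor for tj. In S2-AbdA, aub fell 7.75-fold and bam fell 4.32-fold against S2 replicates 1 and 2. In S2 replicates 3 and 4, aub fell 15.6-fold, AGO3 4.73-fold and osk 2.26-fold against S2 replicates 1 and 2. Fewer cells that express a gene and less RNA per cell cannot be told apart in these bulk libraries.

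The tests were edgeR quasi-likelihood F tests over 9375 genes, called at a Benjamini-Hochberg adjusted p under 0.10. Of the 8 genes 7 entered them, since tj did not reach the least level of 0.213 CPM in 2 libraries. The genes vas and nos reached it with both of S2 replicates 1 and 2, neither of S2 replicates 3 and 4 and 1 S2-AbdA library. The gene bam reached it in both libraries of each S2 pair and in 1 S2-AbdA library, so it entered through S2, where it is high. The counts below are therefore over the genes that passed and describe them only. Between S2-AbdA and S2 replicates 1 and 2, 10.4% of all tested genes were called, 3.0% higher and 7.36% lower, and of the 7 genes 2 were lower and 0 higher, with 4 at an unadjusted p under 0.05. DESeq2, over 11179 genes, called 4 of the 7, again 0 of them higher. Shares of all genes given here and below are by edgeR at an adjusted p under 0.10. They are not the background of counts by DESeq2 or at an unadjusted p, for which no share is given. The median log2 fold change of the 7 was -1.17, and that of all tested genes was -0.02. Between S2-AbdA and S2 replicates 3 and 4, 31.8% of all genes were called, 14.7% higher and 17.1% lower, and of the 7 genes 2 were higher and 1 lower, with a median of 0.72 against -0.01 for all genes. Between S2 replicates 3 and 4 and S2 replicates 1 and 2, where 18.1% of all genes were higher and 18.9% lower, 4 of the 7 were lower and 0 higher, with 5 at an unadjusted p under 0.05. The 4 include vas and the 5 include vas and nos, which entered the tests through S2 replicates 1 and 2, where they are high. DESeq2 called 3 of them lower and 0 higher. The median there was -1.42 against -0.01 for all genes. This median and that of 0.72 are the values of nos itself, so they describe the genes that passed and not the set. These comparisons share libraries pairwise and are not independent of each other.

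**Figure D2:**
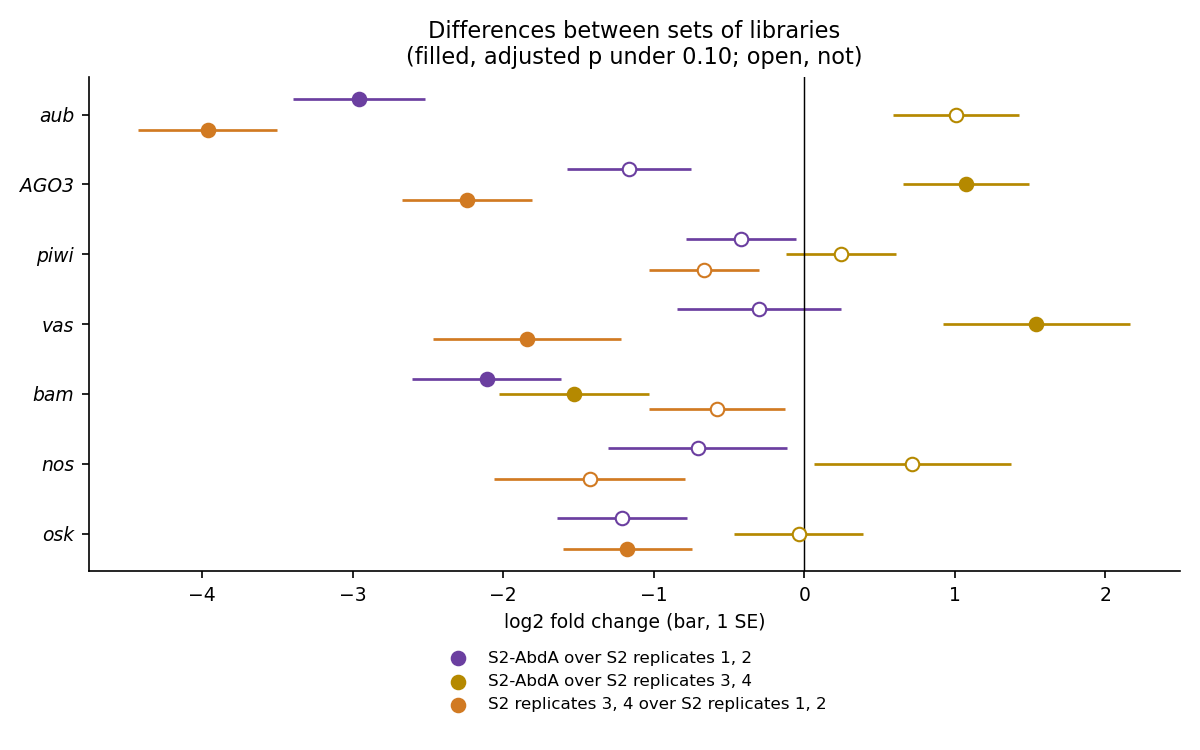
Log2 fold change of the 7 tested genes (horizontal axis) in the 3 comparisons, with bars of 1 standard error; filled circles have an adjusted p under 0.10. For aub the difference of S2-AbdA from S2 replicates 1 and 2 is -2.96 and that of S2 replicates 3 and 4 is -3.96, and bam lies below 0 in all 3 comparisons.

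The gene aub (NCBI gene 34524, chromosome 2L, 10997819 to 11001489 in the dm3 build) encodes the PIWI protein that takes up piRNAs antisense to transposons and starts the ping-pong loop. Its counts were 1786 and 2119 in S2 replicates 1 and 2, 165 and 144 in S2 replicates 3 and 4, and 244 and 377 in S2-AbdA. In CPM these were 52.2 and 48.4, then 3.05 and 2.06, then 5.15 and 8.13. The pairs did not overlap, and the libraries within a pair were close to each other beside the distance between pairs. Mean levels were 50.3 ± 2.65 CPM, 2.56 ± 0.702 CPM and 6.64 ± 2.11 CPM (SD, n = 2 each). Against S2 replicates 1 and 2 the log2 fold change in S2-AbdA was -2.96 (SE 0.44, edgeR adjusted p = 0.0015), and it was past the threshold whichever single library was left out. With all 4 S2 libraries taken as 1 group it was -2.04 (adjusted p = 0.663). Over S2 replicates 3 and 4, S2-AbdA was higher by 1.01 (SE 0.42, edgeR adjusted p = 0.104), which missed the threshold. It was past it in 7 of 15 alternative fits, DESeq2 among them, with log2 values from 0.21 to 1.57 over the 15. S2 replicates 3 and 4 differed from replicates 1 and 2 by -3.96 (SE 0.46, edgeR adjusted p = 1.89e-04), more than S2-AbdA did, and this call held in all 15 alternative fits.

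The gene AGO3 (3355150, 3L, 23547693 to 23682740 in dm3) encodes the partner of Aub in ping-pong, which carries mostly sense piRNAs. Its 6 libraries held 409 and 791 counts (S2 replicates 1 and 2), 155 and 154 counts (S2 replicates 3 and 4) and 359 and 287 counts (S2-AbdA). These came to 11.9 and 18.1 CPM, 2.87 and 2.20 CPM, and 7.57 and 6.19 CPM. The 3 pairs followed the order seen for aub and did not overlap, but lay closer together. Between the S2 pairs the log2 fold change was -2.24 (SE 0.43, edgeR adjusted p = 0.00412), and the call held in all 15 alternatives. S2-AbdA was lower than S2 replicates 1 and 2 by -1.17 (SE 0.41, edgeR adjusted p = 0.134), which missed the threshold, while DESeq2, the fit without filter, the fit on the compared libraries alone and the fits without S2 replicate 3 or 4 called it. Over S2 replicates 3 and 4, S2-AbdA was higher by 1.08 (SE 0.42, edgeR adjusted p = 0.0853). That call was lost on leaving out S2 replicate 1, 2 or 4 (adjusted p = 0.135, 0.123 and 0.124) or S2-AbdA replicate 1 or 2 (0.272 and 0.215), and with a correction on exonic length (0.26 log2, adjusted p = 0.719).

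The gene piwi (34521, 2L, 10982396 to 10987416 in dm3) encodes the nuclear PIWI protein, which unlike Aub and Ago3 is also made in ovarian somatic cells. It had 337 and 486 counts in S2 replicates 1 and 2, 248 and 444 in S2 replicates 3 and 4, and 436 and 319 in S2-AbdA, or 9.84 and 11.1 CPM, 4.59 and 6.36 CPM, and 9.19 and 6.88 CPM. The pairs did not overlap, yet each lay near the next. Means were 10.5 ± 0.892, 5.47 ± 1.25 and 8.04 ± 1.63 CPM (SD, n = 2 each). No comparison called piwi: the log2 fold changes were -0.42 (SE 0.37, edgeR adjusted p = 0.768) and 0.24 (SE 0.37, 0.637) for S2-AbdA over the 2 S2 pairs, and -0.67 (SE 0.37, 0.184) between the S2 pairs. Its fitted differences were smaller in size than those of aub and AGO3 in each comparison, and the difference between genes was not tested.

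Compared per length, the order of the PIWI genes was not the same in the 3 pairs of libraries. In S2 replicates 1 and 2, aub led with 16.7 ± 0.880 RPKM (SD, n = 2), above AGO3 at 4.72 ± 1.36, piwi at 3.41 ± 0.290 and osk at 3.19 ± 1.5. The range of osk, 2.13 to 4.25 RPKM, overlapped those of AGO3 and piwi, so those neighbours are not ordered beyond their spread. In S2 replicates 3 and 4, piwi led with 1.78 ± 0.406 RPKM, followed by osk at 1.2 ± 0.0817, aub at 0.848 ± 0.233 and AGO3 at 0.797 ± 0.148, the last 2 overlapping. In S2-AbdA, piwi at 2.62 ± 0.532, aub at 2.20 ± 0.701 and AGO3 at 2.16 ± 0.306 RPKM all overlapped one another. The genes of lowest level kept below these everywhere: bam, vas and nos lay between 0.0162 and 0.630 RPKM.

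The PIWI genes were a small share of Argonaute transcripts. AGO2, which carries siRNAs, stood at 144 and 164 RPKM in S2 replicates 1 and 2, 39.6 and 99.0 in S2 replicates 3 and 4, and 125 and 168 in S2-AbdA, and AGO1, which carries miRNAs, at 20.3 and 23.3, then 9.59 and 22.9, then 29.7 and 32.7 RPKM. Of the summed RPKM of the 5 Argonaute genes, aub, AGO3 and piwi made up 12.9% and 11.9% in S2 replicates 1 and 2, 6.48% and 2.75% in S2 replicates 3 and 4, and 4.36% and 3.31% in S2-AbdA. Both libraries of S2 replicates 1 and 2 were above the other 4. In those libraries aub alone reached 9.18% and 7.54%, and elsewhere it stayed between 0.545% and 1.93%.

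**Figure D3:**
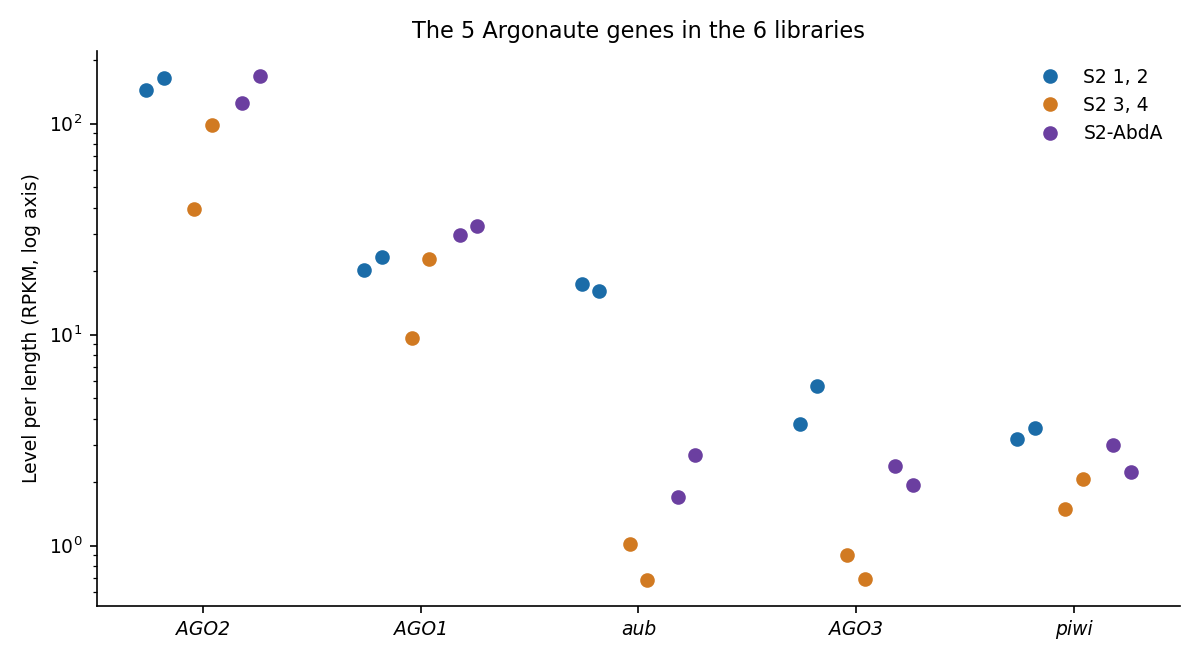
Level per length of the 5 Argonaute genes (RPKM, log axis) in the 6 libraries, coloured by pair of libraries; each point is 1 library. AGO2 lies highest throughout, from 39.6 to 168 RPKM, and aub spreads most widely, from 0.684 to 17.3 RPKM.

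The gene vas (34884, 2L, 15061656 to 15074267 in dm3) encodes the DEAD-box helicase of nuage that marks germ cells, and it was barely detected. Its counts were 11 and 13 in S2 replicates 1 and 2, 2 and 7 in S2 replicates 3 and 4, and 9 and 15 in S2-AbdA, or 0.321 and 0.297 CPM, 0.0370 and 0.10 CPM, and 0.190 and 0.324 CPM. S2 replicate 3 was under the floor of 3 counts, and S2-AbdA overlapped S2 replicates 1 and 2. Since vas entered the tests through S2 replicates 1 and 2, where it was high, its difference between the S2 pairs is given as a description (log2 -1.84, SE 0.62, edgeR adjusted p = 0.0523), and it was higher in S2-AbdA against S2 replicates 3 and 4 (1.54, SE 0.62, 0.0949). Leaving out S2 replicate 1, 2 or 3 (adjusted p = 0.184, 0.224 and 0.197) or using DESeq2 (0.156) ended the first call. The second was lost on leaving out any library but S2 replicate 4 (0.137 to 0.544), under DESeq2 (0.248) and in 3 further fits. The gene vig, which lies on the other strand, shares 7386 bases with vas and had 3683 to 15612 counts per library. Whether the counting used strand is not stated in the labels or headers, so the few vas counts cannot be told apart from reads of vig. The other 7 genes overlap no gene in the count tables.

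The gene nos (42297, 3R, 14982960 to 14985820 in dm3) encodes the translational repressor that patterns the posterior embryo and keeps germline stem cells. It had 12 and 13 counts in S2 replicates 1 and 2, 6 and 6 in S2 replicates 3 and 4, and 14 and 5 in S2-AbdA. These are 0.351 and 0.297, 0.111 and 0.0859, and 0.295 and 0.108 CPM, with the S2-AbdA libraries spread over almost the whole range of the others. No comparison called it: the log2 fold change was -0.71 (SE 0.60, edgeR adjusted p = 0.755) for S2-AbdA over S2 replicates 1 and 2, 0.72 (SE 0.65, 0.430) over S2 replicates 3 and 4 and -1.42 (SE 0.64, 0.113) between the S2 pairs.

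The gene osk (41066, 3R, 4761010 to 4764117 in dm3), whose product assembles germ plasm at the posterior pole of the egg, had the highest mean RPKM over the 6 libraries of the 8 genes after the PIWI genes. It held 209 and 533 counts in S2 replicates 1 and 2, 170 and 243 in S2 replicates 3 and 4, and 188 and 192 in S2-AbdA. In CPM it was at 6.11 and 12.2, 3.15 and 3.48, and 3.96 and 4.14. S2 replicate 2 stood above all others, and the remaining 5 libraries lay within 3.15 to 6.11 CPM. Between the S2 pairs osk was lower in replicates 3 and 4 (log2 -1.17, SE 0.43, edgeR adjusted p = 0.0672). This rested on S2 replicate 2, without which the difference was -0.61 (adjusted p = 0.558), and it was lost with a correction on exonic length (-0.51, adjusted p = 0.420). S2-AbdA differed from S2 replicates 1 and 2 by -1.21 (SE 0.43, edgeR adjusted p = 0.135), which missed the threshold, and from S2 replicates 3 and 4 by -0.04 (SE 0.43, 0.952). That sign is opposite to the order of the mean CPM, 4.05 in S2-AbdA and 3.31 in S2 replicates 3 and 4, since the fit scales libraries by TMM and CPM does not.

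The gene bam (43038, 3R, 21068985 to 21070884 in dm3) encodes the factor that makes the daughters of germline stem cells differentiate, and it was the only one of the 7 tested genes called lower in S2-AbdA against both S2 pairs. Counts were 42 and 38 in S2 replicates 1 and 2, 28 and 44 in S2 replicates 3 and 4, and 9 and 14 in S2-AbdA, or 1.23 and 0.868, 0.518 and 0.630, and 0.190 and 0.302 CPM. Both S2-AbdA libraries lay under all 4 S2 libraries. The level of bam reached the 0.213 CPM needed for testing in both libraries of each S2 pair but in only 1 S2-AbdA library. The gene thus entered the tests through S2, where it is high, and its falls are given as a description. Means were 1.05 ± 0.254, 0.574 ± 0.0789 and 0.246 ± 0.0794 CPM (SD, n = 2 each). The log2 fold change of S2-AbdA was -2.11 over S2 replicates 1 and 2 (SE 0.50, edgeR adjusted p = 0.0193) and -1.53 over S2 replicates 3 and 4 (SE 0.50, 0.0493), while the S2 pairs differed by -0.58 (SE 0.45, 0.337). The first call did not hold without S2 replicate 1 (adjusted p = 0.128) or S2-AbdA replicate 1 (0.216), nor with all 4 S2 libraries as 1 group (-1.85, 0.331). The second was lost without S2-AbdA replicate 1 (0.263) or 2 (0.136), with scaling by library size alone (0.114) and on the compared libraries alone (0.110).

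The gene tj (35227, 2L, 19464267 to 19467758 in dm3) encodes the large Maf factor of the gonadal soma, needed there for piwi expression. It had 0 counts in S2 replicates 1, 2 and 3, 1 in S2 replicate 4, and 3 in each S2-AbdA library, or 0.0633 and 0.0647 CPM there. Every library was at or under the floor of 3 counts, so no fold is given. A level up to 0.0876 CPM would not have been told from 0 in the shallowest library, S2 replicate 1.

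The genes are scattered over 3 chromosome arms, apart from piwi and aub, which lie 10402 bases apart on 2L. Between them are CG12253 and CG16833 (now TTLL4A), and the latter ends 118 bases from aub. CG16833 had 1874 to 5345 counts per library. It differed by 0.41 in S2-AbdA over S2 replicates 1 and 2 (edgeR adjusted p = 0.783) and by -0.05 between the S2 pairs (0.933), and neither passed the threshold. CG12253 differed by 0.44 (edgeR adjusted p = 0.766) and 1.05 (0.0653), opposite in sign to aub. On the other side of aub, lectin-33A had 7 and 31, 6 and 7, and 22 and 21 counts. It was lower in S2 replicates 3 and 4 than in the other S2 pair (log2 -1.85, edgeR adjusted p = 0.0594) and higher in S2-AbdA against S2 replicates 3 and 4 (1.79, 0.0701), and S2-AbdA differed from S2 replicates 1 and 2 by -0.06 (0.997). Of the genes next to the remaining members, CG10026 beside tj fell by 3.21 on the log2 scale in S2-AbdA against S2 replicates 1 and 2 (edgeR adjusted p = 0.00139). It lies 6543 bases from tj, and it was singled out after its value was seen.

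Among all tested genes, those with the profile nearest to a member were found by the root mean square difference of log2(CPM + 1), each profile centred on its own mean, over the 6 libraries. For aub they were snk, a serine protease of the embryo, and Kaz1-ORFB, both at a difference of 0.25 where the profile of aub itself has a root mean square of 1.64. Levels of snk were 13.1 and 10.9, 0.185 and 0.0429, and 0.316 and 0.906 CPM. For AGO3 they were CG14527 (now Nepl20, neprilysin-like) at 0.12 and sug, a zinc finger transcription factor, at 0.15. For piwi they were CG14395 and dysc (0.09 and 0.10), for bam ntc and Cyp317a1 (0.07 and 0.08), and for osk tnc and CG30088 (0.07 and 0.09). The profiles of vas and nos were nearly flat on this scale (root mean squares of 0.14 and 0.13), so their neighbours, CG34370 and Rab3 for vas and Cyp4e3 and CG5418 for nos, share little beyond low counts. None of these neighbours is another of the 8 genes.

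Other genes of the piRNA pathway were set beside the 8, in lists written with results of these data known. Most genes of these lists were better expressed than the PIWI genes. The lists are not limited to germline genes, and hold Hsp83 at a mean of 812 RPKM and SmB at 162 RPKM. Among the cluster genes rhi (0.161 RPKM), TfIIA-S-2 (0.810) and cuff (1.25) lay under the PIWI genes, and del (9.32) and CG12721 (42.6) above them. The medians therefore do not give the level of the germline part of the pathway. The median of mean RPKM was 14.9 for 12 genes of nuclear silencing, 15.5 for 13 genes of piRNA cluster transcription and export, 17.5 for 14 genes of piRNA processing and 30.8 for 15 genes of ping-pong and nuage, against 1.12 for the 8 genes.

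Of the 12 nuclear silencing genes, which include partners of Piwi, edgeR called 0 in S2-AbdA against S2 replicates 1 and 2, where 10.4% of all genes were called. Of the 12, 0 were at an unadjusted p under 0.05 and 0 were called by DESeq2. Their median log2 fold change was -0.09. They include Panx (CG9754), which with nxf2 ties Piwi to silencing and stood at 8.60 RPKM in S2-AbdA and 10.4 RPKM in S2 replicates 1 and 2, and arx (CG3893) at 35 and 28.9 RPKM. Against S2 replicates 3 and 4, where 31.8% of all genes were called, 1 was lower in S2-AbdA, the gene of the heterochromatin protein HP1a (log2 -1.33, edgeR adjusted p = 0.0301). In S2 replicates 3 and 4 over S2 replicates 1 and 2, where 37.0% of all genes were called, 2 were higher, that gene (1.27, 0.0322) and arx (1.09, 0.0586). None of these 3 calls held on leaving out each library in turn.

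The genes of piRNA cluster transcription and export showed 4 falls and 0 rises among 13 tested in S2-AbdA against S2 replicates 1 and 2, where 7.36% of all genes were lower. Of the 13, 6 were at an unadjusted p under 0.05, DESeq2 called 4 lower and 0 higher, and the median was -0.44. Over S2 replicates 3 and 4, 1 was higher and 4 were lower in S2-AbdA, where 31.8% of all genes were called, and between the S2 pairs 2 were higher and 4 lower, where 37.0% were. The gene del, whose product joins Rhi and Cuff on cluster chromatin, had 2406 and 3943 counts in S2 replicates 1 and 2, 128 and 246 in S2 replicates 3 and 4, and 290 and 541 in S2-AbdA. Its pairs stood in the order of aub. The log2 fold change was -3.21 in S2-AbdA (SE 0.43, edgeR adjusted p = 8.36e-04) and -4.50 between the S2 pairs (SE 0.46, 9.76e-05), and both calls held whichever library was left out. With all 4 S2 libraries as 1 group the difference in S2-AbdA was -2.27 (adjusted p = 0.663). Over S2 replicates 3 and 4, S2-AbdA was higher by 1.3 (SE 0.41, edgeR adjusted p = 0.0452), a call lost without S2-AbdA replicate 2 (0.73, 0.501) and with the correction on exonic length (0.56, 0.304). CG13741 (now Boot, for export of cluster transcripts) had the same order, with 430 and 765, 87 and 81, and 126 and 237 counts, and differed by -1.98 (edgeR adjusted p = 0.0215) and -3.11 (0.00128). The call of CG13741 in S2-AbdA was lost without S2 replicate 2 (0.115) or S2-AbdA replicate 1 (0.179) and with all 4 S2 libraries as 1 group (-1.14, 0.717).

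CG12721 (now moon), which starts transcription inside clusters, did not follow that order. It had 1511 and 1537 counts in S2 replicates 1 and 2, 3801 and 3469 in S2 replicates 3 and 4, and 235 and 132 in S2-AbdA. Both S2-AbdA libraries were far under all 4 S2 libraries. Its log2 fold change was -3.38 in S2-AbdA over S2 replicates 1 and 2 (SE 0.46, edgeR adjusted p = 9.21e-04) and -4.32 over S2 replicates 3 and 4 (SE 0.48, 2.33e-04), and both calls held whichever library was left out. TfIIA-S-2, a copy of the gene for the small TFIIA subunit, had 19, 20, 43 and 29 counts in S2 and 0 and 1 in S2-AbdA (edgeR adjusted p = 0.00481 over S2 replicates 1 and 2). Its means were 0.506 and 0.606 CPM in the S2 pairs and 0.0108 CPM in S2-AbdA. It entered the tests through S2, where it is high, and is 1 of the 4 called lower in S2-AbdA against each S2 pair. With all 4 S2 libraries as 1 group the call was lost (-5.62, edgeR adjusted p = 0.127). The founding cluster factor rhi had 16 and 22, 7 and 10, and 11 and 2 counts, with a log2 fold change of -1.84 in S2-AbdA that missed the threshold (SE 0.64, edgeR adjusted p = 0.127), and cuff was at -1.09 (SE 0.47, 0.256). The gene rhi entered the tests through S2 replicates 1 and 2, where it is high, and is 1 of the 4 called lower between the S2 pairs.

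Genes that make or amplify piRNAs gave no call with S2-AbdA against S2 replicates 1 and 2, where edgeR called 10.4% of all genes. Of 14 processing genes edgeR called 0, with 2 at an unadjusted p under 0.05 and 0 called by DESeq2, and the median was -0.17. Of 13 tested ping-pong and nuage genes it called 0, with 1 at an unadjusted p under 0.05 and 0 called by DESeq2, and the median was 0.07. The nuage genes tej and qin, with 1 to 4 and 1 to 11 counts per library, did not pass the filter. Over S2 replicates 3 and 4, where 31.8% of all genes were called, 1 processing gene was lower in S2-AbdA, and 3 ping-pong genes were higher and 3 lower. Between the S2 pairs, where 37.0% of all genes were called, 2 of 14 processing genes were higher and 1 lower in replicates 3 and 4, and 4 of 13 ping-pong genes were higher and 4 lower. Of the calls between the S2 pairs only that of BoYb, a Tudor-domain gene of nuage, held on leaving out each library in turn. It stood at 13.8 RPKM in S2 replicates 1 and 2, 2.0 RPKM in S2 replicates 3 and 4 and 15.2 RPKM in S2-AbdA (between the S2 pairs log2 -2.53, SE 0.36, edgeR adjusted p = 5.65e-04).

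**Figure D4:**
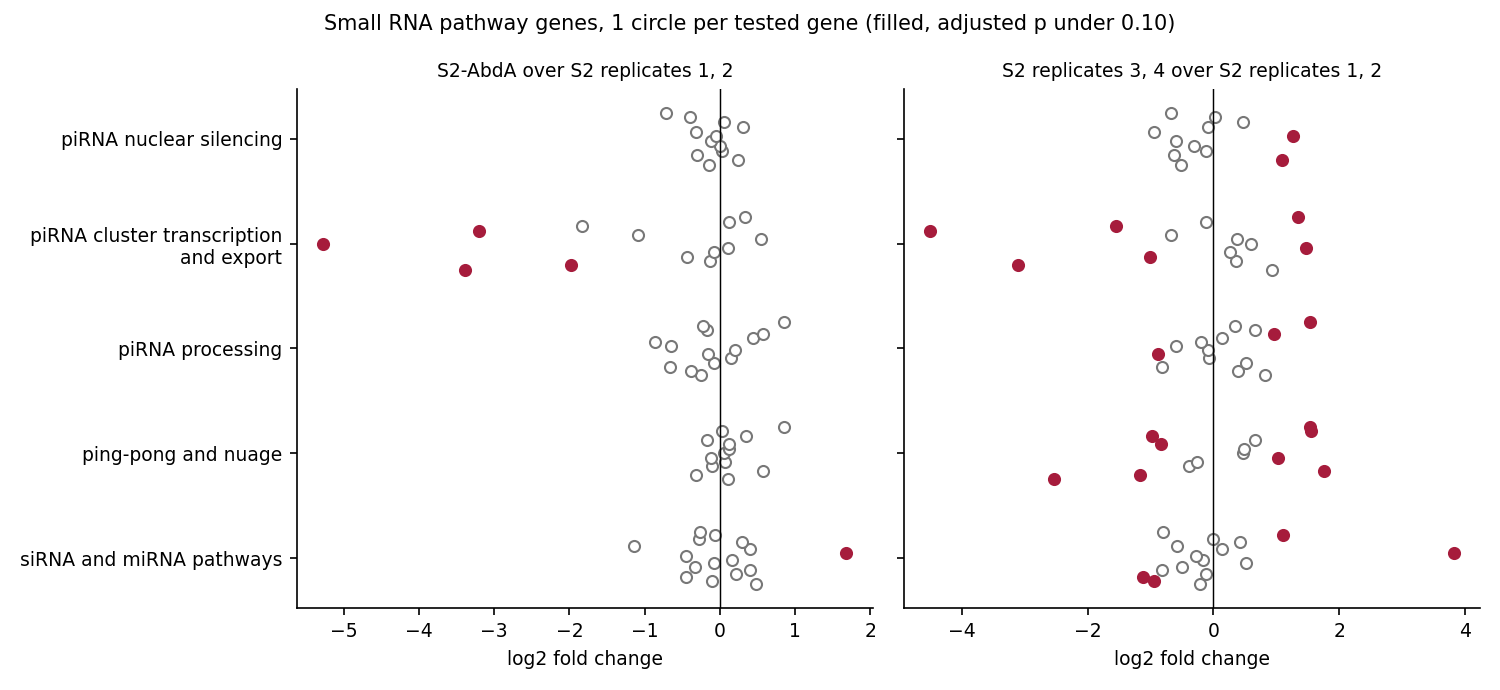
Log2 fold change (horizontal axes) of every tested gene of 5 small RNA lists, for S2-AbdA over S2 replicates 1 and 2 (left) and S2 replicates 3 and 4 over S2 replicates 1 and 2 (right); 1 circle per gene, filled where the adjusted p is under 0.10. On the left the filled circles are 4 falls among the cluster genes and 1 rise among the siRNA and miRNA genes.

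In S2-AbdA over S2 replicates 1 and 2, 3.0% of all genes were higher and 7.36% lower. There the siRNA and miRNA machinery, the other small RNA routes of the cell, had a median of -0.07, and of its 16 genes 0 were lower and 1 was higher. It was blanks, an RNA-binding gene known from the testis, with 1296 and 3128, 32390 and 46007, and 10818 and 6155 counts. Its call in S2-AbdA (log2 1.68, SE 0.42, edgeR adjusted p = 0.0275) ended without S2 replicate 1 (0.359) or S2-AbdA replicate 1 (0.239). Blanks differed by 3.82 between the S2 pairs (SE 0.46, edgeR adjusted p = 2.20e-04), in the direction opposite to aub and AGO3. In S2-AbdA over S2 replicates 3 and 4 it was lower by -2.14 (SE 0.43, edgeR adjusted p = 0.00710), so the direction in S2-AbdA was opposite against the S2 pairs, and this call held whichever library was left out. In that comparison 1 gene of the list was higher and 2 were lower, where 31.8% of all genes were called.

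In S2-AbdA against S2 replicates 1 and 2, edgeR called 10.4% of all genes. Of 24 tested germ plasm and maternal mRNA genes it called 0 there, with 1 at an unadjusted p under 0.05 and 1 called higher by DESeq2. Of 17 stem cell and differentiation genes it called 0, with 3 at an unadjusted p under 0.05 and 1 called higher by DESeq2. The partner of Bam, bgcn, was at 100 and 196, 29 and 72, and 136 and 163 counts, with a log2 fold change of -0.25 in S2-AbdA (SE 0.43, edgeR adjusted p = 0.937) and -1.99 between the S2 pairs (SE 0.45, 0.0111). The gene tut (CG32364), which acts with bam and bgcn in the testis, was at -1.39 in S2-AbdA (SE 0.55, 0.186). Partners of osk in germ plasm and transport were well expressed, with stau at 12.4 RPKM, tud at 59.2 RPKM and vls at 41.4 RPKM, and bcd, BicC and bru1 (aret in the files) had 0 to 6 counts per library. In S2-AbdA over S2 replicates 3 and 4, where 31.8% of all genes were called, 4 germ plasm genes were higher and 2 lower, and 3 stem cell genes were higher and 4 lower. Between the S2 pairs, 4 germ plasm genes were higher and 4 lower in replicates 3 and 4, and 6 stem cell genes were higher and 3 lower, where 37.0% of all genes were called. On leaving out each library in turn, 5 stem cell calls between the S2 pairs held, 2 higher and 3 lower. They were those of Rbp9, bgcn, dpp, ovo and zpg. Of the germ plasm calls 1 held, that of the translational repressor gene pum (log2 -1.72, SE 0.40, edgeR adjusted p = 0.0130).

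Markers of the gonadal soma and meiotic genes of the testis were mostly low. Of 25 gonadal soma genes 8 reached a mean of 1 RPKM. Among the defining ovarian somatic markers zfh1 was at 47.0 RPKM and fs(1)Yb at 9.43 RPKM, Fas3 was at 0.316 RPKM, and eya and tj had at most 5 and 3 counts in any library. In S2-AbdA against S2 replicates 1 and 2, 1 of 16 tested genes of that list was higher and 2 were lower, where 3.0% and 7.36% of all genes were. Of these calls 0 held on leaving out each library in turn, and DESeq2 called 0. In S2 replicates 3 and 4 over S2 replicates 1 and 2, 8 of the 16 were lower and 0 higher (median -1.46), with 9 at an unadjusted p under 0.05 and 8 lower and 0 higher by DESeq2, and 18.9% of all genes were lower. The 8 called by edgeR include esg and cad, which are also the 2 lower in S2-AbdA. Both reached the least level of 0.213 CPM only in S2 replicates 1 and 2, where they are high (means of 0.291 and 0.702 CPM). These counts and medians therefore describe the genes that passed only. In S2-AbdA over S2 replicates 3 and 4, 5 were higher and 0 lower (median 0.70), with 6 at an unadjusted p under 0.05 and 4 higher and 0 lower by DESeq2. Of all genes 14.7% were higher and 17.1% lower in that comparison. Of 25 testis meiotic genes 11 had at most 3 counts in every library and 5 reached a mean of 1 RPKM. Of 11 tested, 1 was higher and 3 were lower in S2-AbdA over S2 replicates 1 and 2, where 3.0% and 7.36% of all genes were. Among the 3 was vis with 353 and 467, 37 and 26, and 37 and 46 counts (log2 -3.60, SE 0.51, edgeR adjusted p = 0.00109). Between the S2 pairs 4 of the 11 were lower and 0 higher by edgeR in replicates 3 and 4, with 4 at an unadjusted p under 0.05 and the same numbers by DESeq2. Of all genes 18.1% were higher and 18.9% lower there. Lower in both comparisons were Mst98Ca (10 and 28, 1 and 2, and 0 and 0 counts) and Mst98Cb (19 and 33, 0 and 2, and 1 and 2 counts). They entered the tests through S2 replicates 1 and 2, where they are high, so these counts describe the genes that passed only. In S2-AbdA over S2 replicates 3 and 4, 1 was higher and 0 lower, with 1 at an unadjusted p under 0.05, where 14.7% and 17.1% of all genes were.

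Of 14 blood cell markers, 6 were lower, 1 was higher and 7 were not called in S2-AbdA over S2 replicates 1 and 2 (median -1.04), where 7.36% of all genes were lower, and 2 of the 7 calls, those of Sr-CI and nimC1, held on leaving out each library in turn. In all, 8 were lower and 0 higher in S2 replicates 3 and 4 over S2 replicates 1 and 2 (median -1.55), by edgeR, with 11 at an unadjusted p under 0.05 and 10 lower and 0 higher by DESeq2, where 18.9% of all genes were lower. Over S2 replicates 3 and 4, 4 were higher and 1 was lower in S2-AbdA, where 14.7% and 17.1% of all genes were. The phagocytic receptor gene Sr-CI, for example, had 1680 and 967, 17 and 13, and 37 and 106 counts, and nimC1 had 67 and 96, 0 and 3, and 8 and 12 counts. Both had the order of aub, and some other markers did not. The gene nimC1 entered the tests through S2 replicates 1 and 2, where it is high. Pxn, a matrix peroxidase gene, had 6443 and 2450, 3384 and 16076, and 364 and 1075 counts and was lower in S2-AbdA against both S2 pairs (log2 -3.01, edgeR adjusted p = 0.0193, and -3.46, 0.00902), calls that were lost without S2 replicate 3 (0.301 and 0.200) or 4 (0.251 and 0.177), and gcm had 4 and 11, 0 and 0, and 17 and 360 counts, high in 1 S2-AbdA library. The part of such differences between the libraries in those of the 8 genes was not tested.

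The authors' deposited table lists 2122 genes with a false discovery rate under 0.10, where the count tables hold 14770 genes. Among those listed are 4 of the 8 genes, aub, AGO3, bam and osk. Turned to S2-AbdA over S2, the log2 ratios in the authors' deposited table are -2.93 for aub, -1.17 for AGO3, -2.06 for bam and -1.24 for osk, with false discovery rates of 2.99e-17, 0.00269, 4.38e-05 and 0.00198. The edgeR values given above for the same genes were -2.96, -1.17, -2.11 and -1.21, of which those of AGO3 and osk missed the threshold.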

How the data were processed

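The authors deposited raw counts for each gene in each library, with dm3 coordinates, and a table of log2 values, p-values and false discovery rates. The submitters' processing notes name CASAVA, edgeR and dm3, with no version. For the aligner, the counter and strand nothing is given in the sources used here. Per the file headers 1 log2 column is a fold change and 1 a concentration, but across genes the column headed logConc correlated at -0.946 with the S2-AbdA to S2 (replicates 1 and 2) ratio of CPM on the log2 scale (pseudocount 0.1 CPM) and the column headed logFC at 0.998 with the mean level, so the headings appear exchanged and the first was turned around.

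The deposited counts were fitted with edgeR 4.0.16 in R 4.3.3 (filterByExpr with a minimum of 10 counts and a total of 15, scaling by TMM, robust quasi-likelihood F test, Benjamini-Hochberg adjustment), all 6 libraries in 3 sets sharing 1 estimate of the spread (common biological coefficient of variation 0.291). TMM factors were 0.752 for S2 replicate 3 and 1.00 to 1.10 for the others. DESeq2 1.42.0 and limma 3.58.1 served as alternatives, beside other scalings, filters, left-out libraries and a replicate block. Standard errors were taken from each log2 fold change and its F statistic (effect divided by root F). The fit was tested on simulated data. Tables were built with pandas 2.3.3 and numpy 2.4.6 (Python 3.11.15, scipy 1.17.1). CPM is counts over the library total. Exonic lengths (14478 of 14770 genes) and current symbols came from a later annotation by NCBI gene number (by symbol for vas), and no coordinate was taken from it. Totals of 34233132 to 69858688 counts set the precision, and floors cover counting error only. The rule for naming took all 8 genes, abd-A, overlapping genes, the 2 nearest profiles per gene, and up to 3 genes of smallest adjusted p and 2 of highest RPKM from each list, of which those the results turn on appear. Neighbouring genes and further list genes were named after their values were seen. Members and lists were chosen with earlier results of these data known.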

Additional observations from a re-analysis of the deposited data

How the results depend on the processing

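For the tested members of the 8 genes, 285 of 339 alternative values stayed on the same side of the threshold, 33 lost it, 21 gained it and 0 turned round with a call. The number called in S2-AbdA against S2 replicates 1 and 2 was 2 and became 4 without a filter, under DESeq2 and on the compared libraries alone, 1 with at least 1 CPM in 2 libraries (where fewer genes are tested) and 0 with all 4 S2 libraries as 1 group (edgeR, 1 at an unadjusted p under 0.05), and it ran from 1 to 4 on leaving out a library. Against S2 replicates 3 and 4 it was 3 and became 1 at an adjusted p under 0.05, 1 on the compared libraries alone and 1 with a length correction chosen after seeing the data, and it ran from 0 to 3 on leaving out a library (with 0 called, 2 were at an unadjusted p under 0.05). Between the S2 pairs it was 4, became 2 at an adjusted p under 0.05 and ran from 2 to 4 on leaving out a library. Where that left 1 S2-AbdA library, it was assumed to vary like the others. The cause of these changes was not tested. Against S2 replicates 3 and 4 and between the S2 pairs, the median of all genes (-0.01 in both) became -0.47 and 0.47 with the length correction and 0.30 and -0.27 with library size alone. It became -0.15 between the S2 pairs with upper quartile scaling, and went from -0.02 to -0.14 with all 4 S2 libraries as 1 group. Blanks was at -1.24 in S2-AbdA with all 4 S2 libraries as 1 group, a turn in sign. Against S2 replicates 3 and 4, values on leaving out a library ran from -0.63 to 0.83 for srp and from -1.64 to 1.88 for Hml, turning in sign. With the replicate number as a block the count was 2 as before. The deviations of S2 and S2-AbdA libraries of the same number correlated at -0.01 (2 pairs), so the numbers were not taken as pairs.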
